A study of Mus musculus with 2 samples.

Results

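Cdk4, Ccnd3, Cdc25a, Rrm2 and Dbf4, 5 genes that act where a dividing cell passes from G1 into S phase, were described across the 2 libraries of an RNA sequencing study of the embryonic mouse cortex. They were found by symbol among the 2381 rows of the deposited table, and each had exactly 1 row of its own, so all 5 members were found. The table holds only loci that the authors called different between the libraries, and the 5 genes were picked from earlier results of this same contrast. Their fold changes are therefore given as a description, with no test. One library came from Trrap-deleted cortex, with both Trrap alleles floxed and a Nestin-Cre transgene (TrrapF/F NestinCre+). The other, the control, was entered as wild type, but its description gives it 1 floxed and 1 intact allele with the same transgene (TrrapF/+ NestinCre+). Both were taken at E14.5 on a B6/129 background, so both carried Cre and at least 1 floxed allele. Nestin-Cre recombines mainly in neural progenitors and their descendants, and recombination in microglia, vessels and meninges was not measured here. There was 1 library per genotype, with no replicate, and the number of embryos behind each library is not stated in the labels. Trrap itself was not among the loci analysed here, so the deletion could not be checked against its transcript.

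Trrap is a large scaffold protein without catalytic activity that holds together histone acetyltransferase complexes, which transcription factors of the Myc and E2F families can bring to promoters. A D-type cyclin binds Cdk4 or its relative Cdk6, and the pair phosphorylates the retinoblastoma protein, which releases E2F factors to switch on genes for S phase. Cdc25 phosphatases remove inhibitory phosphates from cyclin-dependent kinases, ribonucleotide reductase supplies the building blocks of DNA, and the kinase Cdc7 with its partner Dbf4 starts replication origins. In the embryonic cortex these genes are active in the progenitors that line the ventricle, where the length of G1 is known to be tied to the choice between renewal and neuron production.

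Of the 5 regulators, 4 were lower and 1 was higher in Trrap-deleted cortex. Over all 2381 rows, 42.0% were lower and 58.0% were higher in Trrap-deleted cortex. Values are FPKM, fragments scaled to transcript length and library size, and log2 fold changes are Trrap-deleted over control. All 5 genes differed by more than 1.5-fold. Over all rows, 31.4% were lower by at least 1.5-fold and 47.2% were higher by at least 1.5-fold. Rrm2 alone among the 5 passed 2-fold, as did 13.6% of all rows in the lower direction and 25.5% in the higher direction. The members were chosen on this contrast, so nothing is read from those counts. In bulk tissue, fewer cells of a type and less RNA per cell cannot be told apart, and that holds for every difference given here.

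**Figure D1:**
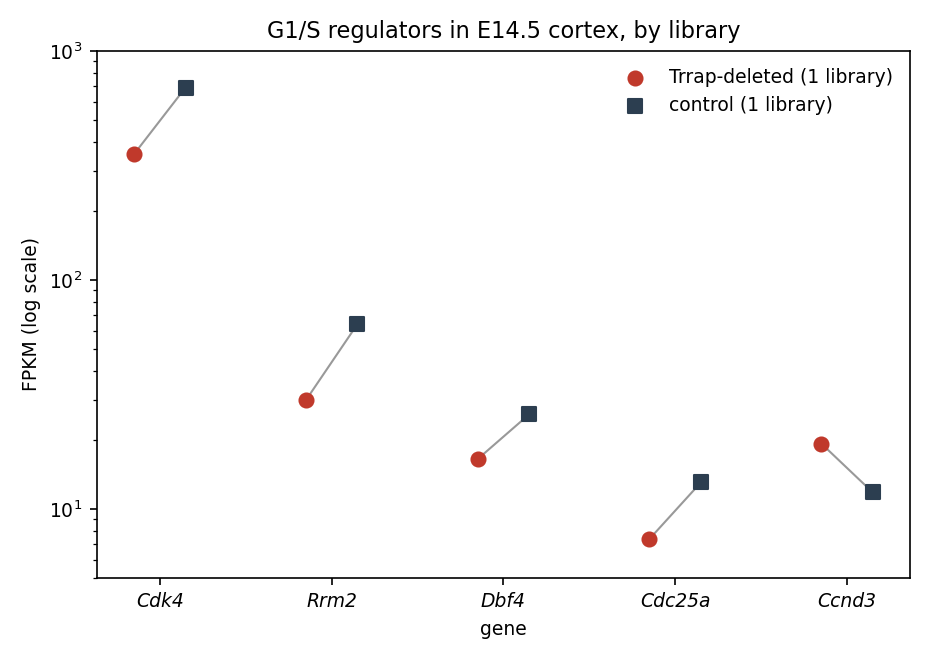
FPKM of each G1/S regulator (log axis) in the Trrap-deleted library (circles) and the control library (squares), with a grey line joining the 2 values of a gene. Cdk4, Rrm2, Dbf4 and Cdc25a lie lower in the Trrap-deleted library, and Ccnd3 lies higher, at 19.3 against 11.8 FPKM.

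Cdk4, the kinase partner of the D-type cyclins, was by far the most abundant of the 5. Its level was 353 FPKM in Trrap-deleted cortex and 691 FPKM in control cortex, a log2 fold change of -0.97 (1.95-fold lower). Only 38 rows of the table had a higher value in the Trrap-deleted library, and 22 had a higher value in the control library. The authors' deposited table gives Cdk4 a p-value of 1.78e-11 and a q-value of 2.56e-09. Most equally abundant loci were lower as well: of the 44 other rows whose summed FPKM lay within 1.5-fold of that of Cdk4, 42 (95.5%) were lower, and the median log2 fold change of the 44 was -0.57. The locus in the table (mm9, chr10:126497442-126508153) spans 10712 bases, against 4387 bases for the annotated gene. The 3′ end of Cdk4 overlaps 641 bases of Tspan31 on the opposite strand in the GENCODE M21 annotation. No source states strand-specific counting, so the value of Cdk4 is uncertain at least to that extent. Overlaps were searched over the annotated gene only, here and below, so the rest of the locus was not checked for other genes. The nearest listed locus, Agap2, begins 7779 bases beyond it and went the other way, at 23.8 FPKM in Trrap-deleted and 12.3 FPKM in control cortex.

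Ccnd3 encodes cyclin D3, one of the cyclins that activate Cdk4, and was the only one of the 5 that was higher in Trrap-deleted cortex. It stood at 19.3 FPKM in Trrap-deleted cortex and 11.8 FPKM in control cortex, a log2 fold change of 0.71 (1.64-fold higher). In the authors' deposited table its p-value is 0.000475 and its q-value 0.00696. The median log2 fold change over the 2376 rows with values above 0 in both libraries was 0.54. Among the 469 rows of similar abundance it was 0.52. Both medians pool higher and lower rows. Among the higher rows alone the median was 0.91, so Ccnd3 lay below it. Among 1378 higher rows above 0 in both libraries, 930 had a larger log2 fold change than Ccnd3. The locus (mm9, chr17:47642000-47748441) covers 106442 bases, against 94641 for the annotated gene. The annotated gene overlaps 361 bases of Bysl on the opposite strand at its 3′ end. Cyclins D1 and D2 (Ccnd1, Ccnd2) and Cdk6 were not among the rows analysed here, so how the other D-type pairs behaved cannot be given.

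The transcripts of Cdk4 and Ccnd3 thus stood in different proportions in the libraries. The ratio of Cdk4 to Ccnd3 FPKM was 18.3 in Trrap-deleted cortex and 58.6 in control cortex, a log2 difference of -1.68 (3.20-fold lower in Trrap-deleted cortex). Such a ratio is taken within each library and does not depend on how the libraries were scaled to each other. Over all 10 pairs of the 5 genes, the 4 pairs that include Ccnd3 differed between libraries by 1.36 to 1.81 on the log2 scale in absolute terms, and the 6 pairs among the other 4 genes by 0.14 to 0.45. There is no replicate error against which to set either range. The table leaves out small differences, so any pair of 1 higher and 1 lower gene must differ widely. Nothing is therefore read from the gap between the ranges. The order of the levels also differed between the libraries. From high to low it was Cdk4, Rrm2, Ccnd3, Dbf4 and Cdc25a in Trrap-deleted cortex, and Cdk4, Rrm2, Dbf4, Cdc25a and Ccnd3 in control cortex. Whether Ccnd3 and Dbf4 (19.3 and 16.5 FPKM in Trrap-deleted cortex), or Cdc25a and Ccnd3 (13.1 and 11.8 FPKM in control cortex), differ beyond the spread between embryos cannot be told from 1 library each.

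**Figure D2:**
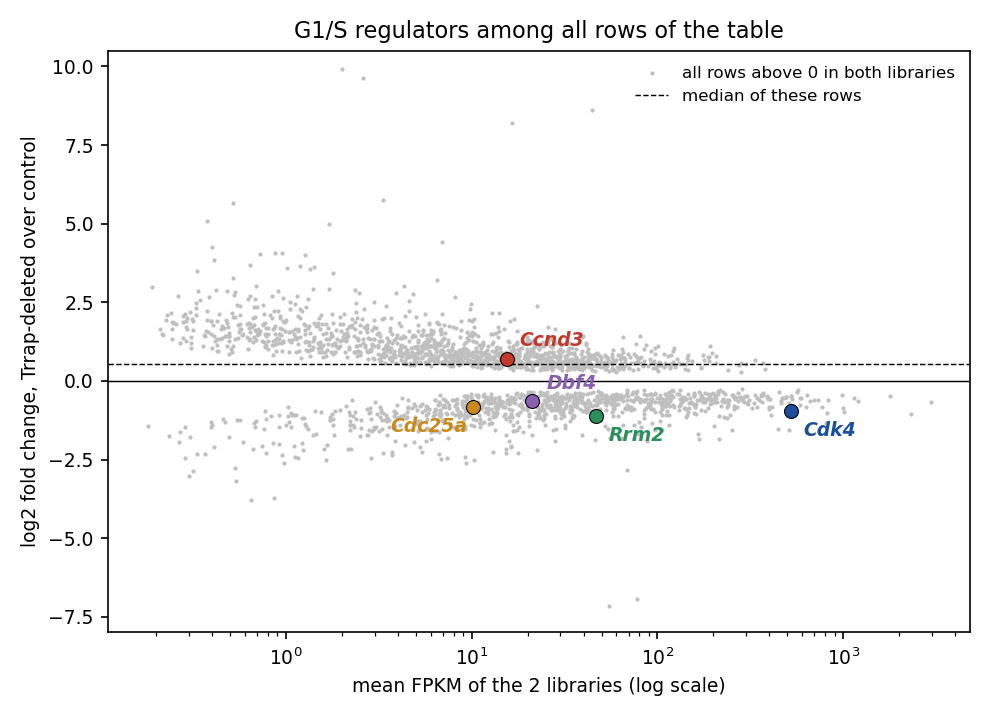
Log2 fold change, Trrap-deleted over control, against mean FPKM of the 2 libraries (log axis) for the 2376 rows with values above 0 in both (grey), with the 5 regulators in colour. The empty band around 0 reflects that only loci called different were deposited; the dashed line is the median of 0.54, and Ccnd3 (0.71) lies near it while Cdk4 (-0.97) sits among abundant rows that are nearly all lower.

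Cdc25a encodes the phosphatase that activates the kinase Cdk2 bound to cyclin E or A at the start of S phase. It measured 7.39 FPKM in Trrap-deleted cortex and 13.1 FPKM in control cortex, a log2 fold change of -0.82 (1.77-fold lower). The authors' deposited table lists a p-value of 8.64e-06 and a q-value of 0.000254 for it. Rows of similar abundance were mostly higher: 169 of 433 (39.0%) were lower, and the median log2 fold change of the 433 was 0.58. Its locus is chr9:109777969-109796421 (mm9), 18453 bases against 18317 for the annotated gene, with a microRNA gene, Mir7089, inside it on the same strand. Its family member Cdc25c, which acts on the mitotic kinase Cdk1, was also lower, at 8.62 FPKM in Trrap-deleted and 14.3 FPKM in control cortex (log2 fold change -0.72). The remaining 4 of the 6 genes listed for the CDC25 phosphatases and the opposing WEE1 kinases were not among the rows analysed here.

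Rrm2, the small subunit of ribonucleotide reductase, which makes deoxynucleotides in S phase, had the largest fold decrease of the 5. Its level was 29.8 FPKM in Trrap-deleted cortex and 63.9 FPKM in control cortex, a log2 fold change of -1.10 (2.15-fold lower). In the authors' deposited table the p-value of Rrm2 is 1.01e-09 and its q-value 9.63e-08. Among 998 lower rows above 0 in both libraries, 251 had a larger decrease. Rows of similar abundance were divided, 172 of 349 (49.3%) being lower. The locus (mm9, chr12:25393106-25399011) has the length of the annotated gene, 5906 bases, and no annotated gene overlaps it. Of 16 genes of deoxynucleotide supply, 3 were listed, Rrm2 included, and all 3 were lower, against 42.0% of all rows. The others were Dut, the enzyme that destroys dUTP (45.4 FPKM in Trrap-deleted and 71.9 FPKM in control cortex), and Dck, a kinase of nucleotide salvage (25.6 and 36.5 FPKM in Trrap-deleted and control cortex). Rrm1, the large subunit of the same reductase, was not among the rows analysed here. Nme1 shares a row with Nme2 and Gm20390 and was not counted (175 FPKM in Trrap-deleted and 281 FPKM in control cortex).

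Dbf4 encodes the activating partner of Cdc7 and had the smallest fold change of the 5 as deposited. With the median of the listed rows set to 0, Ccnd3 had the smallest (log2 fold change 0.17, against -1.19 for Dbf4), and in FPKM the smallest difference was that of Cdc25a. It measured 16.5 FPKM in Trrap-deleted cortex and 25.9 FPKM in control cortex, a log2 fold change of -0.65 (1.57-fold lower). In the authors' deposited table its p-value is 0.00393 and its q-value 0.0374, and 2168 of the 2381 rows have a smaller p-value, so Dbf4 lies near the limit of 0.05 at which the table stops. Among 459 rows of similar abundance, 191 (41.6%) were lower. Its locus is chr5:8396893-8422716 (mm9), 25824 bases against 25744 for the annotated gene, and no other gene overlaps the annotated one. Cdc7, the kinase itself, was not among the rows analysed here.

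The sequence upstream of the transcript start was read from RefSeq promoter windows (GRCm38.p6, a later build than that of the table), matched by symbol for all 5 genes. The 250 bases before each start were searched on both strands for 4 motifs. These were the E-box CACGTG, which Myc and related factors bind, the E2F words TTTCCCGC, TTTGCCGC, TTTGGCGC and TTTCGCGC, the CCAAT box CCAAT, which the factor NF-Y binds, and the GC box GGGCGG of Sp1. Matches of different motifs did not overlap each other in any of the 6 windows. Shown are Cdk4 and Cdc25a, the 2 genes with an E-box or E2F word, and, for contrast, the downstream start of Ccnd3, the gene that was higher. Capitals mark every match of the 4 motifs, and the last base printed is the one before the start.
Cdk4, chr10:127063285-127063534, plus strand: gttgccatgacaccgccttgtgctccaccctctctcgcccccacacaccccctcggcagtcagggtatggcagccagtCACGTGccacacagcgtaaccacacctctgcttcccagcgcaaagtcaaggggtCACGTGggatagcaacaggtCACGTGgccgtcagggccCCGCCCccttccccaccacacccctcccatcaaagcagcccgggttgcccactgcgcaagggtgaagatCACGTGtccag
Cdc25a, chr9:109875329-109875578, plus strand: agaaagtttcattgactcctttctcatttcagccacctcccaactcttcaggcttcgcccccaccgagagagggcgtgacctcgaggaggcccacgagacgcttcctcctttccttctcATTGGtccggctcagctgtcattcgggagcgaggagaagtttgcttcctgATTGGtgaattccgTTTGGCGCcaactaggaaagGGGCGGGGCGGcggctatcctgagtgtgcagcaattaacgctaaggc
Ccnd3, chr17:47593217-47593466, plus strand: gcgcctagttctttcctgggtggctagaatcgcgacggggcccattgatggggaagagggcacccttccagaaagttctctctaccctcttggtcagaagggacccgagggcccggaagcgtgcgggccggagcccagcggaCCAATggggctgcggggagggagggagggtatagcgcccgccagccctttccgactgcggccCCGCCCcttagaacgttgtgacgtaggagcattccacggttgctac

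The Cdk4 window held 4 E-boxes, beginning 172, 118, 98 and 11 bases before the start, and 1 GC box. Of 32851 windows of the same length, 6.02% held an E-box and 7 windows (0.0213%) held 4 or more. Cdc25a held the E2F word TTTGGCGC 67 bases before its start, a motif present in 1.86% of all windows, together with 2 CCAAT boxes and 2 GC boxes that share a base. Neither window of Ccnd3, whose annotated starts lie 88416 bases apart, held an E-box or an E2F word. The same was true of Rrm2, which had 1 CCAAT box and 2 GC boxes, and of Dbf4, which had 3 GC boxes. CCAAT boxes were in 33.8% and GC boxes in 32.7% of all windows. Shares were higher among loci of the table that were lower in Trrap-deleted cortex, whose 695 windows held an E-box in 8.06%, an E2F word in 4.75%, a CCAAT box in 40.9% and a GC box in 62.9%. Among the 1164 windows of loci that were higher, these shares were 7.56%, 2.23%, 31.8% and 58.3% in the same order. Of the 16 listed G1/S genes described next, 13 had a window, 3 of them with an E-box and 3 with an E2F word in at least 1 window. A match describes these letters only; no binding was measured here.

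**Figure D3:**
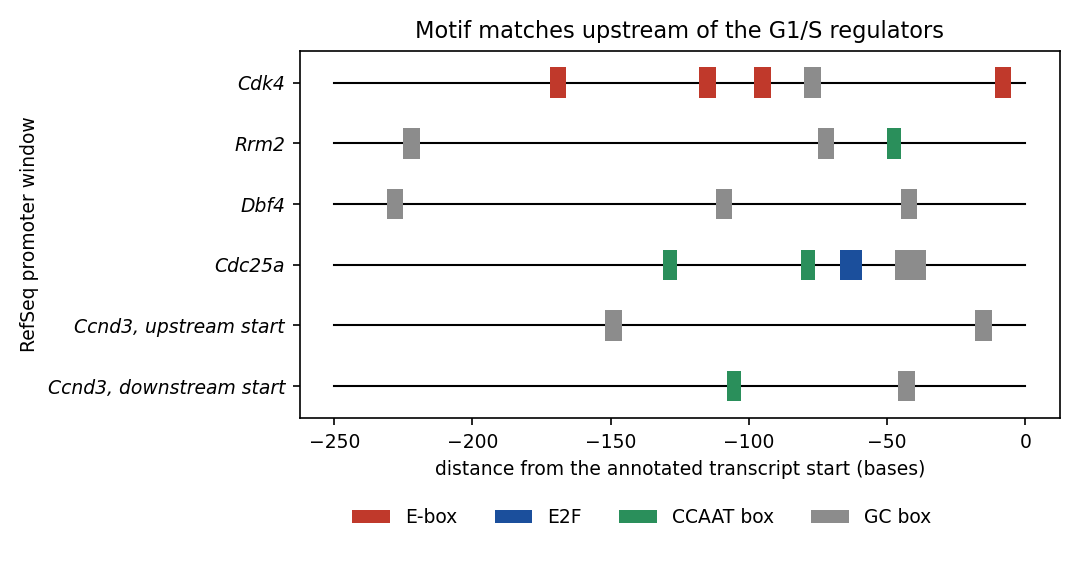
Matches of the E-box, the E2F words, the CCAAT box and the GC box in the 250 bases before the annotated start of each regulator, with distance from the start in bases on the horizontal axis and 2 annotated starts for Ccnd3. The Cdk4 window holds all 4 E-boxes seen, and the E2F word appears in the Cdc25a window.

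Around the 5 genes, 13 lists with 166 symbols cover the G1/S machinery by role, and 16 of the 166, the 5 regulators included, were listed. Of these 16, 13 were lower and 3 were higher in Trrap-deleted cortex (81.2% lower, against 42.0% of all rows), with a median log2 fold change of -0.68. Among rows with at least 5 FPKM in the higher library, a level that all 16 reached, 47.8% were lower. Leaving out the 5 regulators, 9 of 11 were lower, with a median of -0.66. Of 7 CDK inhibitor genes, Cdkn1c alone was listed. Cdkn1c, which encodes the CDK inhibitor p57 and is known for driving progenitors out of the cycle, had the largest decrease of the 16, at 6.002 FPKM in Trrap-deleted cortex and 29.5 FPKM in control cortex (4.91-fold lower). All listed transcription factors and partners were lower, 2 of 19 genes of the retinoblastoma and E2F list and 1 of 10 of the Myc list. E2f3, an activating E2F, measured 9.603 FPKM in Trrap-deleted and 15.6 FPKM in control cortex. The histone-binding protein gene Rbbp4 measured 138 FPKM in Trrap-deleted and 179 FPKM in control cortex, and Mxi1, a Myc antagonist, 7.61 FPKM in Trrap-deleted and 11.3 FPKM in control cortex.

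Of 12 checkpoint genes, 2 were listed and both were lower, against 42.0% of all rows, so nothing is read from that count. Trp53, which encodes p53, stood at 19.6 FPKM in Trrap-deleted and 47.8 FPKM in control cortex (2.44-fold lower), and the checkpoint kinase gene Chek2 at 3.22 FPKM in Trrap-deleted and 5.83 FPKM in control cortex (1.81-fold lower). The 2 genes higher along with Ccnd3 were Pold4 and Fbxw8. Pold4, a small subunit of DNA polymerase delta, was the only one listed of 30 replication fork genes, with 9.24 FPKM in Trrap-deleted and 4.14 FPKM in control cortex. Fbxw8, part of a ubiquitin ligase, was the only one listed of 18 such genes, with 28.2 FPKM in Trrap-deleted and 20.9 FPKM in control cortex. Its log2 fold change of 0.43 became -0.11 after rescaling to a median of 0 over listed rows. None of the 16 licensing genes, the 15 genes of origin firing or the 10 genes of cyclins E and A, their kinases and the CDK-activating kinase had a row of its own. A gene without a row may be unchanged, weakly expressed or not analysed here. Ccna2, cyclin A2, shares a row with Bbs7 and was not counted (54.2 FPKM in Trrap-deleted and 83.1 FPKM in control cortex).

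**Figure D4:**
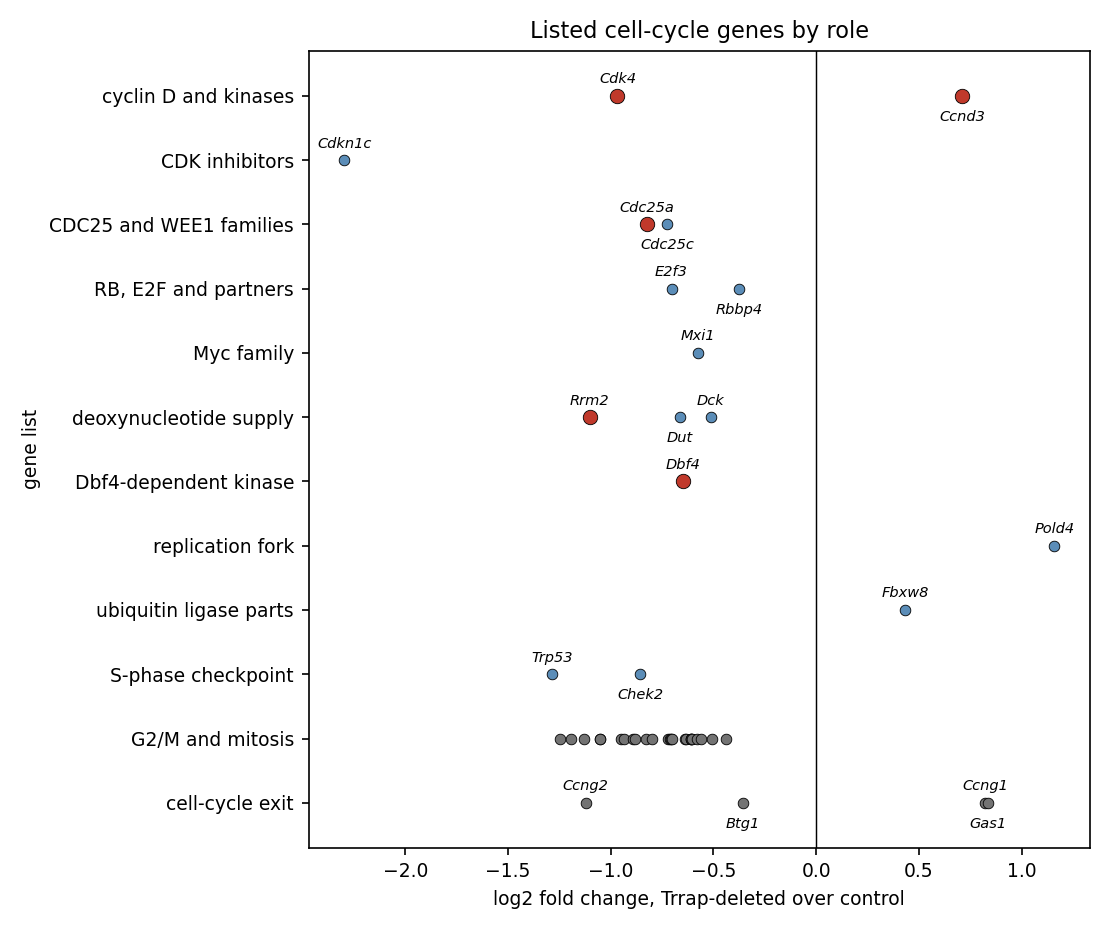
Log2 fold change, Trrap-deleted over control, of every listed gene of the G1/S lists (blue, with the 5 regulators in red) and of the G2/M and exit lists (grey), 1 point per gene and 1 row per list. Of the 16 G1/S genes, 13 lie left of 0, and the 25 listed G2/M genes all do, against 42.0% of all rows.

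Set beside later and earlier phases, the 4 lower regulators lay within the range of the mitotic genes. Of 65 G2/M genes, 25 were listed and all 25 were lower in Trrap-deleted cortex, against 42.0% of all rows. Their log2 fold changes ran from -1.25 to -0.44 around a median of -0.71. Cdca3 (-1.25), Pttg1 (-1.19) and Ube2c (-1.13) had the largest decreases of that list. Only these 3 had a larger decrease than Rrm2, while 5 of the 25 did so relative to Cdk4, 10 relative to Cdc25a and 15 relative to Dbf4. The 4 listed exit genes were divided: Ccng2 (log2 fold change -1.12) and Btg1 (-0.36) were lower, and Gas1 (0.83) and Ccng1 (0.82) were higher. Only loci under the authors' q limit are listed, so small differences are absent from every list. No test of a difference between these lists was made.

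The listed genes most like each regulator were found by the distance between their log2 FPKM in the 2 libraries, which uses 2 values a gene and says nothing of shared control. Nearest to Rrm2 were Ccng2 (30.0 FPKM in Trrap-deleted and 65.2 FPKM in control cortex, distance 0.030), Ube2c (0.054) and Tpm4 (0.093). Nearest to Dbf4 were Ckap2l, a spindle gene of the G2/M list (16.9 FPKM in Trrap-deleted and 26.2 FPKM in control cortex, distance 0.038), Nif3l1 (0.072) and Hey1 (0.090). Cdc25a was closest to Cdo1 (0.030), the cyclin J gene Ccnj (0.068) and Amd2 (0.070). Cdk4 was closest to the ribosomal gene Rplp0 (0.15), the peroxiredoxin gene Prdx2 (0.15) and Vim (0.18). Ccnd3 was closest to Derl1 (0.044), Cables2 (0.055) and Trappc2 (0.059). Ube2c and Ckap2l were the only G2/M genes among these 15 neighbours.

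The libraries differed in transcripts of other cells as well, and their part in the differences of the 5 regulators was not tested. Of 16 cortical genes 4 were listed, and all 4 were far above 0 in both libraries. Neurod6, Neurog2, Fezf2 and Bcl11b summed to 443 FPKM in Trrap-deleted and 495 FPKM in control cortex. They were divided in direction: Neurog2 was higher (112 FPKM in Trrap-deleted and 89.6 FPKM in control cortex), and Neurod6, Fezf2 and Bcl11b were lower. All 10 listed microglial markers of 16 were higher in Trrap-deleted cortex (summed 32.4 against 12.6 FPKM, C1qb and Tyrobp highest). So were all 6 listed meningeal markers of 15 (16.3 against 2.84 FPKM, Dcn and Col3a1 highest). Of all rows, 58.0% were higher. Lhx6, a marker of ventral telencephalic interneurons, was lower (1.71 FPKM in Trrap-deleted and 7.06 FPKM in control cortex). Both listed endothelial and pericyte genes of 12, Pdgfrb and Cspg4, and the only listed choroid plexus gene of 7, Ttr, were higher. Of 11 erythroid genes Hbb-y was higher and Tfrc lower. The 3 listed Y-linked genes of 4 summed to 42.0 FPKM in Trrap-deleted and 0.122 FPKM in control cortex, with Eif2s3y and Ddx3y highest. Xist, the RNA of the inactive X chromosome in female cells, measured 142 FPKM in Trrap-deleted and 313 FPKM in control cortex, and was thus present in both libraries. The labels do not give the sex of the embryos. No listed marker was at 0 in either library. With 1 library per genotype, genotype, sex-linked expression and tissue makeup cannot be told apart.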

How the data were processed

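RNA sequencing libraries of embryonic cortex were made with a TruSeq kit, per the labels' protocols, and TopHat2 and build mm9 are named in the submitters' processing notes. Neither the counting and testing software nor the depth is stated there, and both are not given in the sources used. The 2 value columns of the deposited table were read as FPKM as deposited by the authors, from the table's layout. Each p-value and q-value was copied as deposited by the authors. Other columns of the authors' deposited table, the test score and the log2 fold change, were used only for checks: the fold changes recomputed here with numpy 2.4.6 and pandas 2.3.3 differed from the deposited log2 values by at most 1.18e-05. Only rows under the authors' q limit of 0.05 are held, 59 of them with several symbols, which stayed out of lists. A symbol with several rows was represented by the one with the highest mean FPKM.

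The 5 genes, the lists and the motifs were chosen with earlier results of these data known. Genes named were the 5 regulators, all listed G1/S genes, the 3 nearest rows of each regulator, rows within 20 kb, the 3 largest changes of the G2/M and exit lists (the fourth exit gene was added after its value was seen), and the 2 most abundant markers of each other cell type, of which 1 is not reported here. With 1 library per genotype, no test was run here. Gene lengths and overlaps came from GENCODE M21. The counting of list members, the neighbour search and the motif search were tested on simulated data.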

Additional observations from a re-analysis of the deposited data

How the results depend on the processing

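The signs of the 5 fold changes were kept under all alternatives tried. Those of the 10 pair differences were kept under the only one tried, a pseudocount of 1 FPKM. A pseudocount added to both libraries cannot reverse a fold change. A downward rescaling cannot reverse a lower gene, nor an upward one a higher gene, so much of this outcome was fixed in advance. Pseudocounts of 0.1 and 1 FPKM, and rescaling to the same upper quartile, moved no fold change by 0.1 or more on the log2 scale. Setting the median of the listed rows to 0 shifted every log2 fold change by -0.54 and gave -1.51 for Cdk4, 0.17 for Ccnd3, -1.37 for Cdc25a, -1.65 for Rrm2 and -1.19 for Dbf4. Equal summed FPKM shifted them by 0.35 and gave -0.62 for Cdk4, 1.06 for Ccnd3, -0.48 for Cdc25a, -0.76 for Rrm2 and -0.30 for Dbf4. With a pseudocount of 1 FPKM the difference between Ccnd3 and Cdc25a was 1.41 instead of 1.53. With a q-value under 0.01 required, 8 of the 13 lower G1/S genes remained, Dbf4 not among them, and all 3 higher ones did. No share of all rows under that cut is given here, so nothing is read from which genes it removed. Keeping only changes of 2-fold or more left 3 lower genes and 1 higher gene. A stricter cut can never raise such a count. Rescaling to a median of 0 gave 14 lower and 2 higher, Fbxw8 being the gene that changed sign. No paired analysis was possible because each genotype has 1 library, and leaving out a replicate was not possible for the same reason. Depth is unknown, so no counting interval could be set for any value.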
